A study of Homo sapiens with 4 samples.

Results

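The genes described here are 39 genes of mitosis, namely kinases and cyclins of the G2/M transition and genes of the spindle, its checkpoint and cytokinesis, chosen by name from the 16834 genes of the expression table and not by their values. All 39 were found in the table, and each had between 314 and 13246 estimated reads in every library. RNA was sequenced from MIA PaCa-2, an established human line of pancreatic ductal adenocarcinoma whose labelled genotype is WT. The cells were labelled as control or were treated, each for 12 h. The labels do not say if the control was given solvent. Treatments were 1 µM neobractatin (NBT, which is isolated from the plant Garcinia bracteata), 5 µM trametinib (which blocks MEK, a kinase of the RAS pathway) or both drugs together (combination). There was 1 library per condition, so no value has a replicate error. Intervals below were computed at the 95% level by the Clopper-Pearson method from the pair of read counts behind each ratio. They cover counting error only and not the spread between cultures.

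Cells build up the transcripts of mitosis late in the cell cycle, in G2 and M phase, and have few of them in G1. In resting and G1 cells the DREAM complex (the pocket proteins RBL1 and RBL2 with an E2F and the MuvB core, whose subunit LIN54 touches DNA) keeps these genes low. Later in the cycle the MuvB core joins MYBL2 and then FOXM1 to raise them. MuvB binds the cell cycle genes homology region (CHR), a short element that usually lies close to the start of transcription, and the factor NF-Y binds CCAAT boxes a little further upstream. In bulk RNA, fewer cells in G2 and M and less of a transcript in each such cell cannot be told apart.

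In the control library the summed level of the 39 genes was 5123.2 TPM (a level that is scaled to transcript length and to a fixed sum per library). The sum was 4594.6 TPM after NBT, 5496.2 TPM after trametinib and 5118.5 TPM after both drugs. The NBT library was the lowest and the trametinib library the highest, and the highest sum was 1.196 times the lowest. The combination library lay next to the control. As a share of all estimated reads, the 39 genes made up 0.672% in the control, 0.59% after NBT, 0.7% after trametinib and 0.632% after both drugs. Among single genes of the control library, PTTG1 (513.05 TPM), CDC20 (471.31 TPM) and UBE2C (457.27 TPM), all parts of the machinery that starts anaphase, had the highest levels. CENPE (8.66 TPM) had the lowest level, and the median gene had 90.1 TPM.

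**Figure D1:**
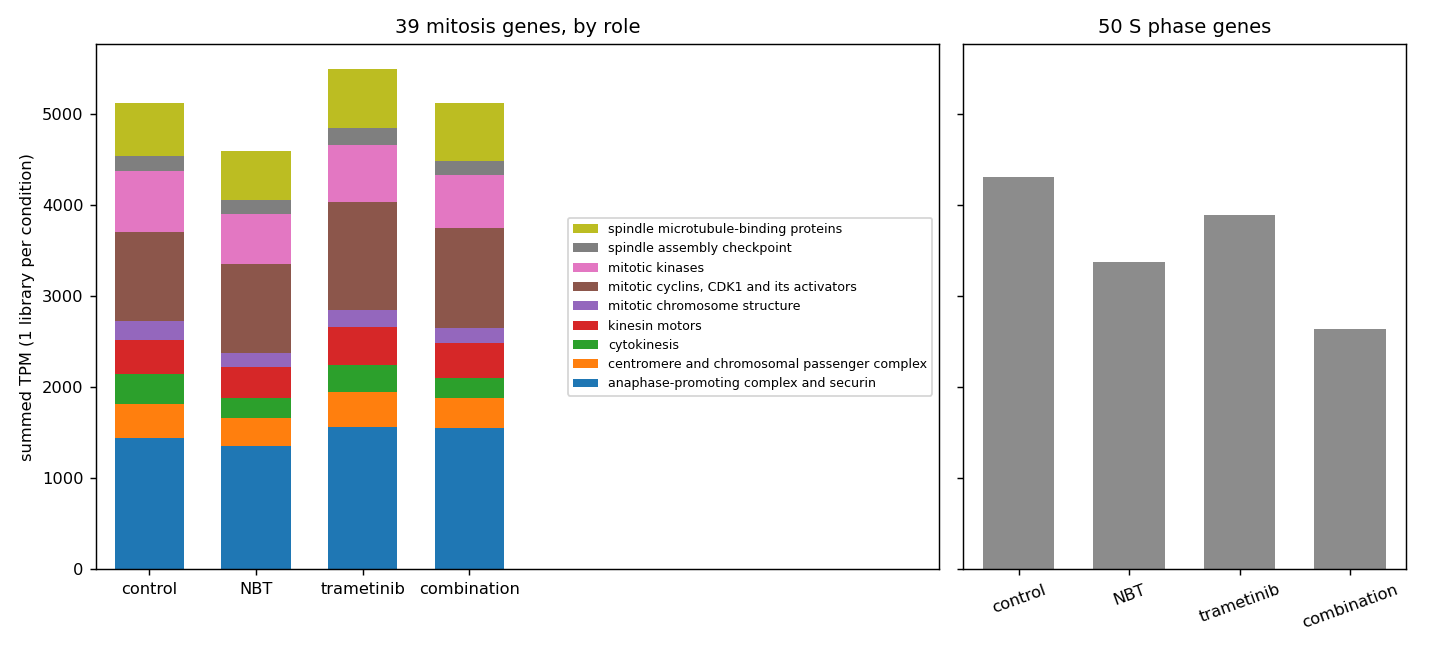
Summed TPM (vertical axis from 0) of the 39 mitosis genes, stacked by role, and of 50 S phase genes, in the 1 library of each condition. The mitosis sum ranged from 4594.6 TPM with NBT to 5496.2 TPM with trametinib, while the S phase sum was 4306.9 TPM in the control and 2645.1 TPM with the combination.

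The libraries were of similar depth, with 18776212 to 19614763 estimated reads in all. Transcripts that depend on MEK checked the trametinib labels: DUSP6, a phosphatase of ERK, had 329 reads in control cells, 521 after NBT, 14 after trametinib and 9 after both drugs, and SPRY4, ETV4 and ETV5 were likewise lowest in both trametinib libraries. The epithelial genes KRT8, KRT18, EPCAM and CDH1 had 2539 to 63594 reads, and PTPRC, PECAM1 and COL1A1, which mark leukocytes, endothelium and fibroblasts, had 8 to 98. KRT19, a further epithelial gene that was looked up, was not among the 16834 genes. The cell line entries of the labels give a different name for each library, while the titles and the study name MIA PaCa-2 for all 4.

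The promoters of these genes show the elements named above. RefSeq promoter sequences (GRCh38.p14, the windows running from 250 bases before to 50 bases after an annotated start) were found for 34 of the 39 genes, with 44 windows. AURKA, TTK, UBE2C, BIRC5 and TPX2 had none. A CHR was searched on both strands by the letters TTTGAA, which are its usual form in promoters of this kind. The rarer form TTCGAA was also accepted. Either form stood in 29 of the 44 windows (65.9%), against 16.4% of all 35116 windows of that length, and a CCAAT box, searched on both strands, stood in 35 (79.5%), against 34.6%. Both elements stood in 59.1% of the windows and in 6.4% of all windows. For comparison, 5.4% of the windows of S phase genes held the CHR letters, and 53.6% held CCAAT. By gene, 26 of the 34 had a CHR, 30 had a CCAAT box and 24 had both. CCNA2, CCNB1, AURKB, NEK2, PTTG1, CENPE, KIF20A and KIF2C had no CHR match in their windows, which says only that these letters are not there.

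**Figure D2:**
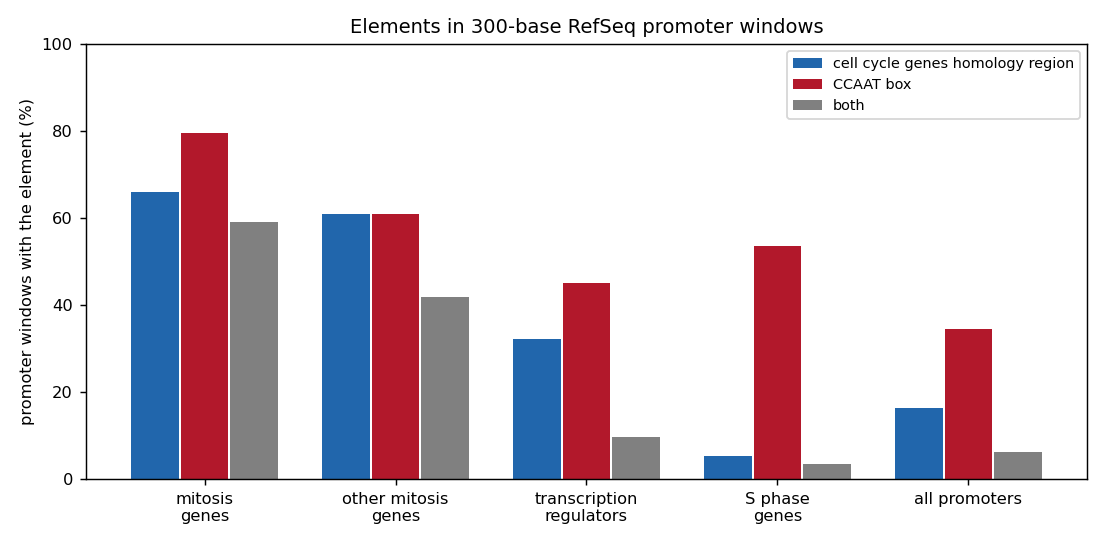
Percentage of 300-base RefSeq promoter windows (vertical axis) that hold CHR letters, a CCAAT box or both, for 5 sets of genes. CHR letters stood in 65.9% of the windows of the mitosis genes and in 16.4% of all windows.

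The following 100-base stretches end at the base just before the annotated start, at position -1, and run 5′ to 3′ on the strand of the gene, with CHR and CCAAT matches in capitals. ANLN and MKI67 are shown because they had the largest falls with NBT. HMMR and CCNB2 had ratios above 0 beyond counting error with each drug, both without and with the other drug. PLK1 and CDC20 are shown because their ratios were small in most comparisons. They lie at chr7:36389762-36389861 (+) for ANLN, chr10:128126424-128126523 (-) for MKI67, chr5:163460532-163460631 (+) for HMMR, chr15:59105046-59105145 (+) for CCNB2, chr16:23678789-23678888 (+) for PLK1 and chr1:43358881-43358980 (+) for CDC20.
ANLN: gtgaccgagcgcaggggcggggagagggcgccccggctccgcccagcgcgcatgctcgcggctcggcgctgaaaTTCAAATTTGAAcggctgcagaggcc
MKI67: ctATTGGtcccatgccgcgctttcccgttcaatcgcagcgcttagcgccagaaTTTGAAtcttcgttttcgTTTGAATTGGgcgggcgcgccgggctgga
HMMR: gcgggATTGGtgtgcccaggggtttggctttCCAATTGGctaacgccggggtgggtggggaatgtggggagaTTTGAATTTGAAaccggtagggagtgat
CCNB2: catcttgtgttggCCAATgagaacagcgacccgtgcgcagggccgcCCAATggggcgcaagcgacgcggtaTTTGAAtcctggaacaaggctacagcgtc
PLK1: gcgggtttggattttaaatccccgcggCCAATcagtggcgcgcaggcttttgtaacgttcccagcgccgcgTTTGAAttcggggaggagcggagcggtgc
CDC20: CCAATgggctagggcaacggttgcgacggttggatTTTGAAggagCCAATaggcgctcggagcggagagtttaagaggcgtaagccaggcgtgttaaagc

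In ANLN a pair of CHR matches on opposite strands abut at -26 and -20, and its window holds no CCAAT box. HMMR carries its pair head to tail at -28 and -22. MKI67 has matches at -47 and -29, the latter of which overlaps a CCAAT box, read on the other strand, at -24. CCNB2 and PLK1 each have 1 match, in both at -29, and CDC20 has its nearest match at -65. In HMMR a CCAAT box at -69 overlaps another at -66, which lies on the other strand. These 6 genes, picked for display, all carried the CHR letters, whereas AURKB, which fell with the combination, and CCNB1 and KIF2C, which were higher with trametinib, had no match. A match of letters does not show that a factor was bound.

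For each pair of libraries the reads were scaled to the library sums, and the log2 ratio was computed with 0.5 reads added. A gene was called where an exact binomial test of the pair of counts, adjusted over all genes with reads, was at most 0.05 and the log2 ratio reached 1 in size, which are the limits the study used. This test compares libraries and not conditions, so no p-value is given. None of the 39 genes was called in any of the 5 comparisons. Among all genes tested, 2.61% were called for NBT against control, 5.96% for trametinib against control, 8.42% for the combination against control, 6.11% for the combination against trametinib and 4.36% for the combination against NBT. The largest ratio of any of the 39 was that of HMMR in the combination against control (log2 0.77). Counting error was small beside these limits, since the intervals of single ratios extended 0.035 to 0.224 to either side on the log2 scale.

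**Figure D3:**
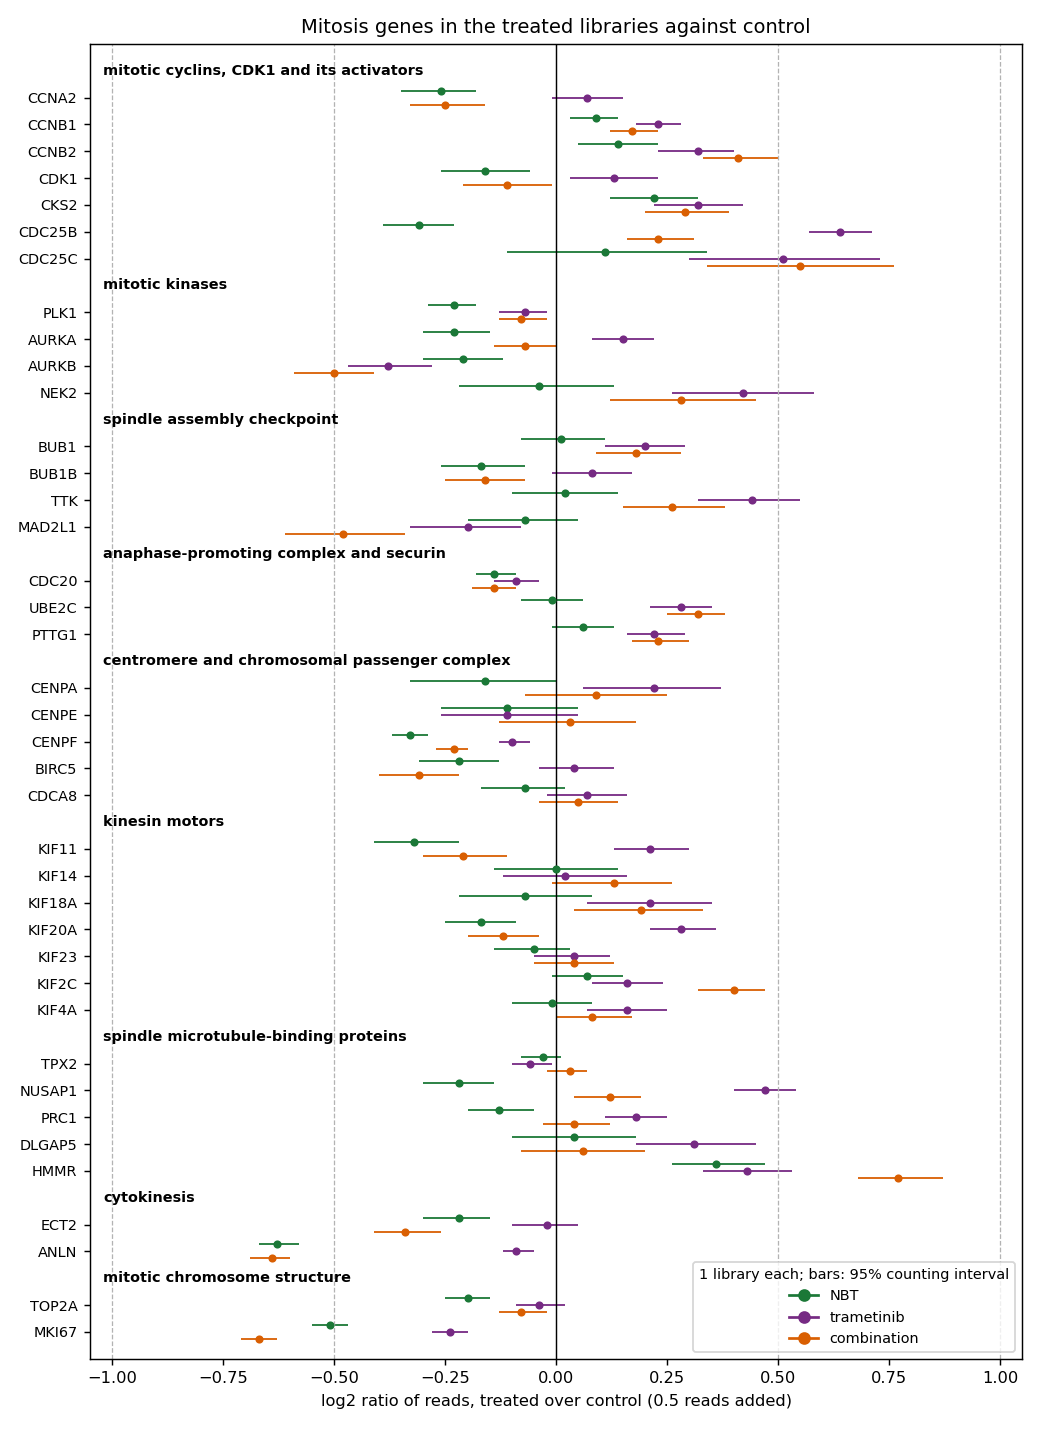
Log2 ratio of reads against the control library (horizontal axis) for each of the 39 mitosis genes, grouped by role, with the NBT library in green, the trametinib library in purple and the combination library in orange. Bars are 95% counting intervals, and all points lie between -0.67 and 0.77, inside the limit of 1.

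With a lower limit of 0.5 on the log2 ratio, NBT alone had 2 genes lower than the control, ANLN and MKI67, where 4.31% of all genes passed, and 0 higher, where 4.94% passed. Trametinib alone had 0 lower (5.67% of all genes) and 2 higher, CDC25B and CDC25C (9.41% of all genes). The combination against control had 3 lower, ANLN, MKI67 and AURKB (10.2% of all genes), and 2 higher, HMMR and CDC25C (12.5% of all genes). Against the trametinib library the combination had 1 lower, ANLN (10.4% of all genes), and 0 higher (7.92% of all genes). Against the NBT library it had 0 lower (5.03% of all genes) and 1 higher, CDC25B (6.53% of all genes). In each of these 10 counts the share of the 39 genes was near or below that of all genes. Here and at the limit of 1, all genes include those with as little as 1 read in a pair. The 39 had at least 314 reads in every library, so the shares were not matched for depth. All of these counts were 0 in a test that assumed a coefficient of variation of 0.2 between cultures. CDC25C was inside the limit with trametinib under TMM (log2 0.44) and median-of-ratios scaling, and with the combination in deposited TPM (log2 0.49). Below, rose and fell are used only of genes past this limit.

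The median gene of the 39 had a log2 ratio of -0.11 for NBT against control, 0.16 for trametinib against control and 0.04 for the combination against control, while the medians of all genes with at least 10 reads were 0.00, 0.08 and 0.04. In the other settings the medians were -0.12 for the combination against trametinib (all genes -0.04) and 0.12 for the combination against NBT (all genes 0.03). Under TMM scaling the median for trametinib was 0.08, with 0.00 over all genes. With NBT 29 of the 39 ratios were below 0, whereas all genes divided evenly, and with trametinib 28 were above 0, as were 58.3% over all genes. The combination had 23 of 39 above 0 against the control (53.1% over all genes), 29 below 0 against trametinib (53.5%) and 32 above 0 against NBT (54.0%). Most of the 39 ratios were thus below 0 where NBT was added and above 0 where trametinib was added, by amounts well inside the limits above for most genes, and part of the trametinib shift was shared by all genes.

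The same drug was added in a pair of comparisons that share no library. NBT was added alone (NBT against control) and to trametinib-treated cells (combination against trametinib), and trametinib was likewise added without NBT and on top of it. The following counts, whose rule was chosen after the data had been seen, cover genes with a mean of at least 500 reads, which are 38 of the 39 (all but CDC25C) and 7381 genes in all. NBT gave a ratio below 0 beyond counting error in both pairs for 15 of the 38 (39.5%), against 26.8% of all genes, and above 0 for 2 (5.3%), against 22.4%. The 15 were ANLN, AURKA, AURKB, BIRC5, BUB1B, CCNA2, CDC25B, CDK1, CENPF, ECT2, KIF11, KIF20A, MKI67, NUSAP1 and PRC1, and the 2 were CCNB2 and HMMR. Trametinib gave a ratio below 0 in both pairs for 3 of the 38 (7.9%), AURKB, MAD2L1 and MKI67, against 20.6% of all genes. It gave a ratio above 0 in both for 17 (44.7%), against 21.6%, and these were AURKA, BUB1, CCNB1, CCNB2, CDC25B, CENPA, HMMR, KIF11, KIF18A, KIF2C, KIF4A, NEK2, NUSAP1, PRC1, PTTG1, TTK and UBE2C. Under TMM scaling the trametinib counts were 5 below and 13 above 0, and with deposited TPM 1 gene in place of 2 was above 0 with NBT. AURKB and MKI67 were lower with each drug, CCNB2 and HMMR were higher with each, and AURKA, CDC25B, KIF11, NUSAP1 and PRC1 were lower with NBT and higher with trametinib.

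Over the 38 genes the ratios of one NBT pair and of the other had a Pearson correlation of 0.77 (0.83 over the 7381 genes), and those of the trametinib pairs one of 0.79 (0.75 over the 7381 genes). These describe 4 libraries and carry no test, since the genes share their libraries.

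**Figure D4:**
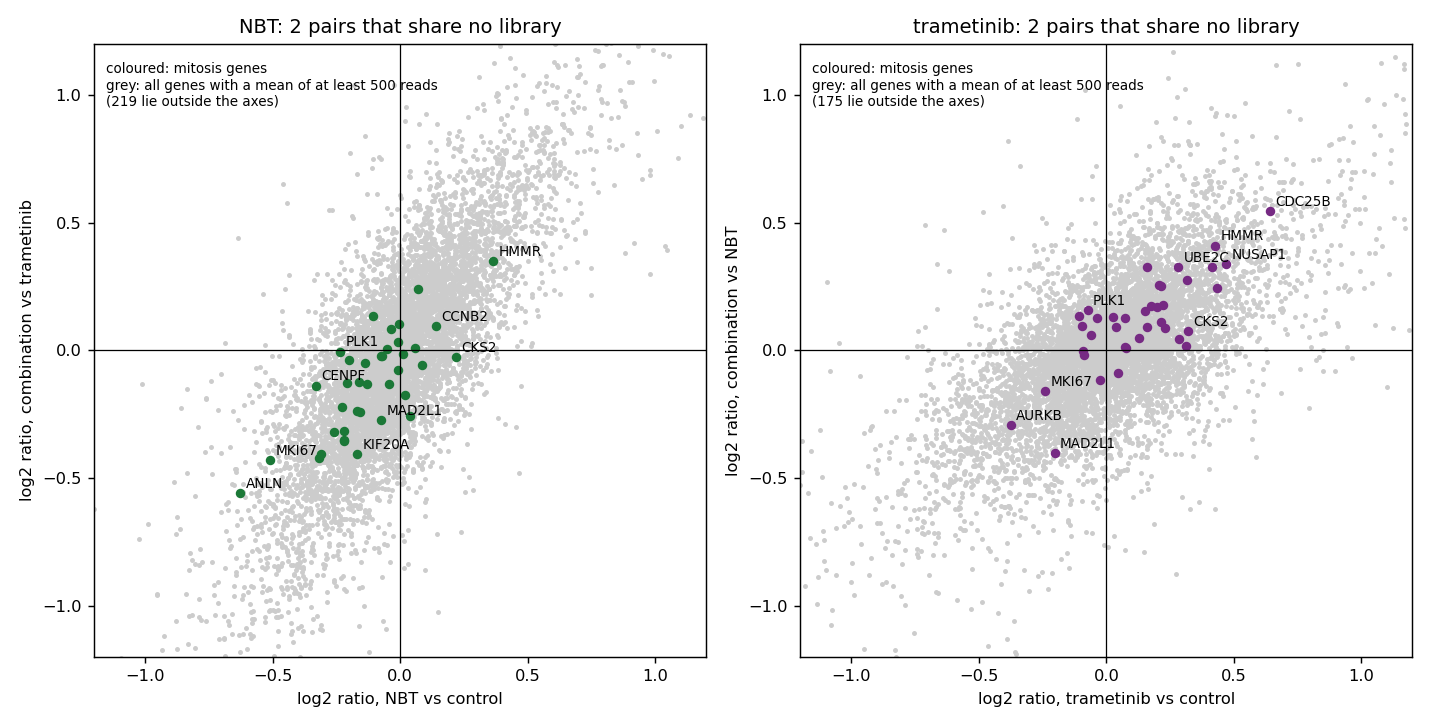
Log2 ratios of a drug added alone (horizontal axis) and added on top of the other drug (vertical axis), for NBT on the left and trametinib on the right. Coloured points are the 38 mitosis genes and grey points all genes with a mean of at least 500 reads; ANLN and MKI67 lie lowest on the left and CDC25B highest on the right.

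Of the mitotic cyclins and the genes of CDK1, CCNB1 (cyclin B1, the main partner of CDK1 at mitotic entry; chr5:69167150-69178245) had 5252 reads in control cells, 5768 after NBT, 6217 after trametinib and 6192 after both drugs. Its ratios to the control were between 0.09 and 0.23 on the log2 scale. CCNB2 (cyclin B2; chr15:59105146-59125045) had 2050, 2337, 2580 and 2852 reads in the same order, so that each treated library exceeded the control and the combination exceeded either drug, with log2 ratios to control of 0.14 (0.05 to 0.23), 0.32 (0.23 to 0.40) and 0.41 (0.33 to 0.50). CKS2, a small subunit that binds CDK1, had 1473 control reads and 1775, 1857 and 1887 with NBT, trametinib and both. Here all treated libraries were above the control and close to one another. CDK1 itself, the kinase that drives mitosis, and CCNA2, cyclin A2 of S and G2 phase, were lower with NBT (log2 -0.16 and -0.26) and with the combination (-0.11 and -0.25), and a little above the control with trametinib (0.13 and 0.07).

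The phosphatases CDC25B and CDC25C remove inhibitory phosphates from CDK1. CDC25B (chr20:3786951-3806115) had 2621 reads in control cells, 2187 after NBT, 4125 after trametinib and 3222 after both drugs. It rose with trametinib alone (log2 0.64, 0.57 to 0.71) and with trametinib added to NBT (0.55, 0.47 to 0.62). Both NBT libraries were below their counterparts without NBT, with log2 -0.31 against the control and -0.41 against trametinib. CDC25C had the fewest reads of the 39 genes in the control, 314, and 351 after NBT, 453 after trametinib and 479 after both drugs. It rose with trametinib (log2 0.51, 0.30 to 0.73) and with the combination (0.55, 0.34 to 0.76) against the control, and its interval for NBT included 0. Summed over this role, the level was 976.6 TPM in the control, 969.0 TPM after NBT, 1179.9 TPM after trametinib and 1096.1 TPM after both drugs.

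Among the mitotic kinases, PLK1 (polo-like kinase 1, which acts from mitotic entry to cytokinesis) had 5593 reads in control cells, 4920 after NBT, 5367 after trametinib and 5536 after both drugs. NBT alone was its lowest library (log2 -0.23, -0.29 to -0.18), and the combination was within 0.08 of the control. AURKA, the Aurora kinase of the spindle poles, was lower with NBT (log2 -0.23) and higher with trametinib (0.15). AURKB (the catalytic subunit of the chromosomal passenger complex; chr17:8204731-8210575) had 2220, 1989, 1727 and 1638 reads in the control, NBT, trametinib and combination libraries. It was thus lower in each treated library than in the control, and with the combination it fell (log2 -0.50, -0.59 to -0.41). NEK2, a kinase of centrosome separation, stood at log2 0.42 with trametinib, 0.28 with the combination and -0.04 with NBT.

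The spindle assembly checkpoint holds anaphase until chromosomes are attached. BUB1B (BubR1) had 1887 reads in control cells, 1737 after NBT, 2011 after trametinib and 1764 after both drugs, and BUB1, a checkpoint kinase, had 1757, 1834, 2036 and 2084. BUB1B was thus lower in both libraries with NBT, whereas BUB1 was highest in both with trametinib. TTK, the kinase MPS1, had log2 ratios of 0.44 with trametinib, 0.26 with the combination and 0.02 with NBT. MAD2L1 (MAD2, the inhibitor that captures CDC20; chr4:120055623-120066848) went the other way, with 1097 reads in control cells, 1079 after NBT, 962 after trametinib and 824 after both drugs. Its ratio for the combination was -0.48 (-0.61 to -0.34), just inside the limit of 0.5, and it passed that limit under TMM (-0.50) and median-of-ratios scaling and in deposited TPM (both -0.51). Its ratio for trametinib added to NBT, -0.40, was the lowest of the 39 genes in that comparison.

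The targets of that checkpoint and of the anaphase-promoting complex had the highest levels. PTTG1 (securin, which restrains separase) had 3339, 3595, 3933 and 4102 reads in the control, NBT, trametinib and combination libraries, and the ubiquitin-conjugating enzyme UBE2C had 3220, 3314, 3951 and 4188. Both were highest in the libraries with trametinib and differed little with NBT (log2 0.06 and -0.01). CDC20, the activator of the complex, had 7274 reads in control cells, 6854 after NBT, 6896 after trametinib and 6906 after both drugs. The 3 treated libraries were close together and slightly below the control, with log2 ratios between -0.14 and -0.09.

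At the centromere, CENPF (a kinetochore protein of G2 and M; chr1:214603195-214664571) had the most reads of the 39 genes, with 13246 in control cells, 10911 after NBT, 12500 after trametinib and 11762 after both drugs. All treated libraries were below the control and NBT alone was the lowest (log2 -0.33, -0.37 to -0.29). BIRC5 (survivin, of the chromosomal passenger complex) had 2270, 2018, 2363 and 1913 reads in the same order, so that both libraries with NBT were the lower ones. CENPA, the histone variant of centromeres, had log2 ratios of -0.16, 0.22 and 0.09 for NBT, trametinib and both. For CDCA8 (borealin) and CENPE, a kinesin of the kinetochore, with 686, 659, 643 and 730 reads, every interval against the control included 0.

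Of the 7 kinesin motors, KIF20A (a motor of the midzone and cytokinesis) had 2721 reads in control cells, 2509 after NBT, 3344 after trametinib and 2612 after both drugs. KIF11 (the motor that separates spindle poles; chr10:92593130-92655395) had 1975, 1642, 2311 and 1788. In both genes trametinib alone was the highest library, and the combination lay below trametinib by -0.41 and -0.42 on the log2 scale. KIF2C (a kinesin that takes microtubules apart at centromeres) had 2403, 2610, 2706 and 3307 reads, and its combination library exceeded all others, with log2 0.40 (0.32 to 0.47) against the control. KIF4A and KIF18A, motors that act on chromosome arms and alignment, had log2 ratios of 0.16 and 0.21 with trametinib. KIF14 and KIF23, both of cytokinesis, had intervals that included 0 for each treated library against the control.

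HMMR (the hyaluronan-mediated motility receptor, which in mitosis binds spindle microtubules; chr5:163460632-163491941) was the gene farthest above its control level, with 1420 reads in control cells, 1893 after NBT, 1925 after trametinib and 2538 after both drugs. The single-drug libraries were alike and lay between the other two. HMMR rose with the combination against control (log2 0.77, 0.68 to 0.87), and the single drugs stood at 0.36 and 0.43, whose sum the combination missed by -0.02. NUSAP1, which binds spindle microtubules near chromosomes, had 2829, 2513, 3949 and 3203 reads, with trametinib alone the highest (log2 0.47) and NBT alone the lowest (-0.22). TPX2, which targets and activates AURKA, had 8517, 8607, 8254 and 9055 reads, and its ratios against the control stayed between -0.06 and 0.03. PRC1, which bundles midzone microtubules, and DLGAP5, a stabiliser of kinetochore fibres, were at 0.18 and 0.31 with trametinib, and at 0.04 and 0.06 with the combination.

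The roles named cytokinesis and chromosome structure, with 2 genes each, held the genes with the largest falls. KIF14, KIF20A and KIF23, kinesins of cytokinesis described above, did not fall. ANLN (anillin, the scaffold of the contractile ring; chr7:36389862-36453791) had 11193 reads in control cells, 7505 after NBT, 10644 after trametinib and 7479 after both drugs. Both libraries with NBT were close to each other, and both without it were far higher. ANLN fell with NBT against control (log2 -0.63, -0.67 to -0.58) and with NBT added to trametinib (-0.56, -0.60 to -0.52), and trametinib added to NBT gave -0.02. The deposited counts of ANLN were not whole numbers, as for 15 of the 39 genes, so part of its reads was divided by the estimate. ECT2 (the activator of RhoA at the division site) had 3098, 2752, 3075 and 2561 reads, the same order of NBT and non-NBT libraries with smaller ratios (log2 -0.22 and -0.31 for NBT in the 2 settings).

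MKI67 (Ki-67, a coat of mitotic chromosomes used as a proliferation marker; chr10:128096659-128126423) had 10644 reads in control cells, 7733 after NBT, 9097 after trametinib and 6989 after both drugs. Each drug library was below the control and the combination was the lowest. MKI67 fell with NBT (log2 -0.51, -0.55 to -0.47) and with the combination (-0.67, -0.71 to -0.63), and was at -0.24 (-0.28 to -0.20) with trametinib. TOP2A, the topoisomerase that untangles sister chromatids, had 5945, 5354, 5852 and 5894 reads, and NBT alone was the lowest library (log2 -0.20).

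To ask whether both drugs together differed from the sum of each, the log2 ratio of the combination to control was set against the sum of the single-drug ratios. None of the 39 genes departed from that sum by 0.5 or more with an interval off 0, against 10% of the 11367 genes with at least 50 reads in a library. The 39 had at least 314 reads in every library, so these shares were not matched for depth. The departures ran from -0.30 (DLGAP5) to 0.24 (CENPE), with a median of -0.03, the same as over all genes. Since each cell of this layout is 1 library, only counting error stands behind these departures.

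The wider programme was described by lists written from textbook knowledge, with earlier results of these data known. In a list of 70 other mitosis genes, 0 were called at the limit of 1 in any of the 5 comparisons, and the median log2 ratios to control were -0.16 after NBT, 0.08 after trametinib and -0.11 after both drugs. In the combination 8 of the 70 were lower at the limit of 0.5, where 10.2% of all genes passed, and 2 were higher, where 12.5% passed. The list of 50 S phase genes, which serve DNA replication, had medians of -0.32, -0.13 and -0.64. In the combination 12 of these 50 were called lower at the limit of 1, where 8.42% of all genes were called in either direction. At the limit of 0.5, 33 were lower, where 10.2% of all genes passed. The largest falls among them were those of the helicase subunit MCM3 (8888 reads in control cells and 3736 after both drugs, log2 -1.31), the ubiquitin ligase UHRF1 (2401 and 1030, log2 -1.28) and the checkpoint adaptor CLSPN (1285 and 556, log2 -1.27). The summed level of the S phase genes was 4306.9 TPM in the control, 3371.9 TPM after NBT, 3891.0 TPM after trametinib and 2645.1 TPM after both drugs. Thus the summed S phase level in TPM was lowest in the combination library, where the summed mitosis level was next to that of the control. That mitosis sum joined genes on both sides of the control. Beyond counting error, 16 of the 39 were below and 14 above it (4065 and 4448 of all 13211 genes with at least 10 reads). In both pairs without a shared library, and beyond counting error, NBT gave ratios below 0 for 35 of 46 S phase genes (76.1%, against 26.8% of all genes). It gave ratios above 0 for 3 (6.5%, against 22.4% of all genes), which were CDC6, GINS3 and ORC6 (named after their values were seen). Trametinib gave ratios below 0 for 22 of 46 (47.8%, against 20.6% of all genes) and above 0 for 0, against 21.6% of all genes. By the same rule, NBT gave ratios below 0 for 31 of 67 other mitosis genes (46.3%) and above 0 for 7 (10.4%). With trametinib 9 of the 67 were below 0 (13.4%) and 19 above 0 (28.4%). That last share was nearer to the 21.6% of all genes than to the 44.7% of the main list.

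**Figure D5:**
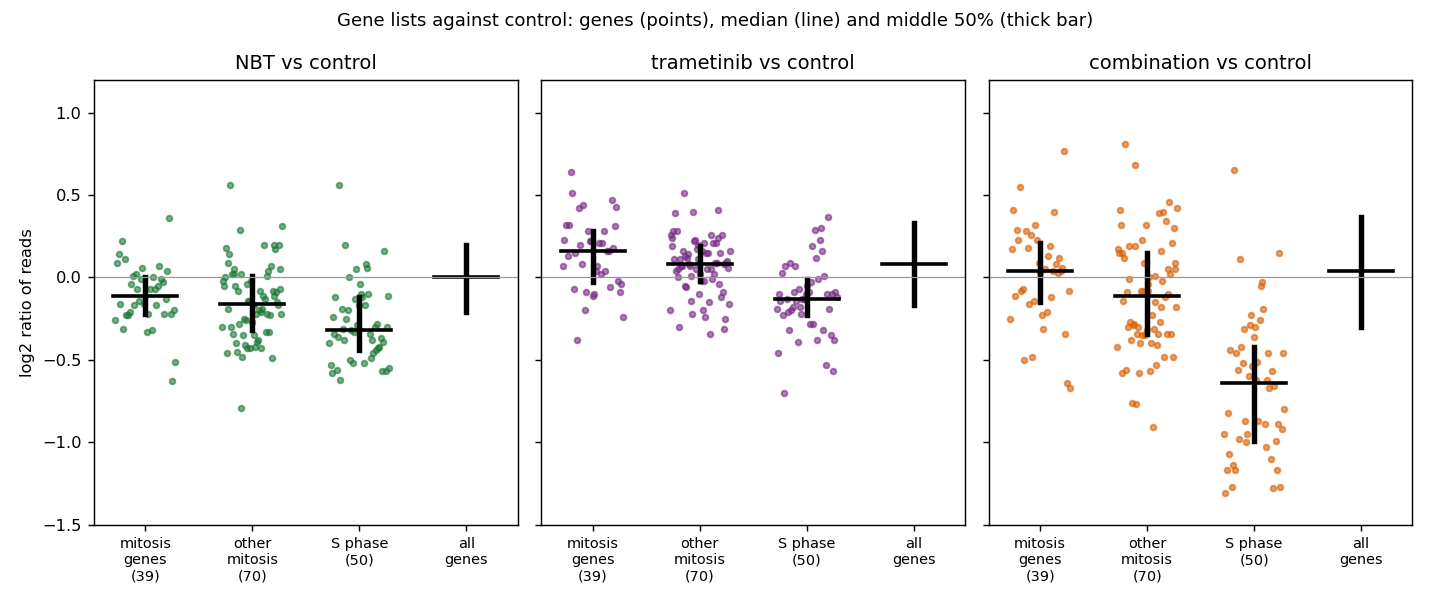
Log2 ratios against the control (vertical axis) of the 39 mitosis genes, 70 other mitosis genes and 50 S phase genes, with 1 panel for each treated library. Points are genes, horizontal lines medians and thick bars the middle 50%; all genes are shown by median and bar alone. The median of the mitosis genes was 0.04 with the combination, that of the S phase genes -0.64.

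Among 25 transcription regulators of mitosis genes, the activators FOXM1 and MYBL2 were lower wherever NBT was given. FOXM1 had 7758 reads in control cells, 5856 after NBT, 7987 after trametinib and 6008 after both drugs, and its NBT ratios were -0.46 in both settings. MYBL2 had 4687, 3306, 4334 and 2983 reads, and fell with NBT alone (log2 -0.55), with NBT added to trametinib (-0.59) and with the combination (-0.71). In both genes the libraries with NBT were the lower ones, as in ANLN.

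Among DREAM genes, RBL1 (p107) had 1131, 1031, 1148 and 893 reads, RBL2 (p130) had 2180, 2095, 2520 and 2094, and LIN54 had 463, 565, 574 and 613. These 3 were not past the limit of 0.5 in any comparison. Other genes of the complex were past it, of which E2F4 and TFDP1 are named after their values were seen. E2F4, the E2F usually found in DREAM, had 6052, 5646, 3825 and 4171 reads and fell with trametinib (log2 -0.68) and with the combination (-0.60) against the control. TFDP1, a dimer partner of E2F factors, had 4759, 3879, 4131 and 2514 reads and fell with the combination against control (-0.98), against trametinib (-0.77) and against NBT (-0.64). LIN37, another MuvB subunit, had 208, 332, 331 and 607 reads and rose against the control with NBT (log2 0.62), with trametinib (0.66) and with the combination (1.48).

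Of the E2F factors, E2F1, an activator of S phase genes, had 1061 reads in control cells, 832 after NBT, 996 after trametinib and 341 after both drugs. It fell with the combination against control (log2 -1.70), against trametinib (-1.59) and against NBT (-1.30), and its departure from the sum of the single drugs was -1.19. E2F2 fell with NBT (log2 -0.52) and with the combination against control (-0.82) and against trametinib (-1.10). Its departure from the sum of the single drugs was -0.58 (-1.0 to -0.15). The repressor E2F8 had 631, 253, 645 and 225 reads and fell with NBT (-1.37), with the combination (-1.55) and with NBT added to trametinib (-1.57). Its relative E2F7 had 1414, 2804, 899 and 2257 reads and rose with NBT (log2 0.94), with the combination against control (0.61) and with NBT added to trametinib (1.28), and fell with trametinib alone (-0.67).

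CDKN1A (p21), an inhibitor of cyclin-dependent kinases, had 550 reads in control cells, 958 after NBT, 1907 after trametinib and 2294 after both drugs. It rose with NBT (log2 0.75), with trametinib (1.78), with the combination (2.0) and with trametinib added to NBT (1.25). The combination lay below the sum of the single drugs, with a departure of -0.53 (-0.71 to -0.36). The part of these regulators in the ratios of the 39 genes was not tested.

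The transcript table held 190 RefSeq transcripts of the 39 genes, with up to 15 for a gene. Estimated reads divide shared sequence between such transcripts, so their shares are estimates without an error. Of 25 genes with at least 2 transcripts past the limits of 50 reads and 10% of the gene, 18 had a transcript whose share ranged over 10 percentage points or more between the libraries. The same count over all genes was not made, so it cannot be said whether this is particular to the mitosis genes. The following genes were picked after their values had been seen. In TPX2 the main transcript NM_012112.5 took 81.8% of the control reads of TPX2 and 78.1% after trametinib, but 69.7% after NBT and 62.6% after both drugs, while the predicted transcript XM_011528697.2 held 8.9%, 10.1%, 21.8% and 25.2% in the same order. Both libraries with NBT thus had the lower share of the main transcript, although the reads of the gene as a whole hardly differed. In AURKB the transcript NM_001256834.3 held 22.7% in the control and 26.8% with trametinib, and 8.9% with NBT and 5.4% with the combination. The reads of ANLN transcript NM_018685.5 were 6817.01 in the control, 4431.22 after NBT, 5916.03 after trametinib and 3649.81 after both drugs, so its estimate was lower in the libraries with NBT. The other ANLN transcripts past those limits had 2037.58, 1732.18, 2845.45 and 2562.66 reads for NM_001284301.3 and 1241.06, 1341.4, 1809.66 and 1266.53 for XM_017012354.2. NM_001284301.3 was thus also lower where NBT was added, without and with trametinib, though its combination library stood above the control. XM_017012354.2 was lower with NBT only where trametinib was present.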

How the data were processed

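RNA was sequenced on the BGISEQ-500 platform as 4 libraries, 1 per condition. The authors deposited estimated counts, TPM and FPKM per gene and per transcript for each library; the submitters' processing notes name Bowtie2 2.2.5, RSEM 1.2.8 and hg38, and filters on reads are not given in the sources used here. TPM is scaled to transcript length and a fixed sum by the authors, and FPKM to length and mapped fragments by the authors. Libraries were grouped by their titles and treatments. The labels do not say how many cultures stand behind a library.

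The 39 genes, their roles and the lists of other genes were chosen with earlier results of these data known. Estimated counts were rounded and scaled to library sums of 18776212 to 19614763. Of the 39 genes, 24 had whole deposited counts in every library, and the other 15 had a fractional count. Log2 ratios had 0.5 reads added. Calls used an exact two-sided binomial test (smaller tail doubled) with Benjamini-Hochberg adjustment over genes with at least 1 count (adjusted value at most 0.05). The script was tested on simulated data. Every library's value was given for the 3 largest falls and rises of each comparison, called genes and the 2 highest control levels of each role. From the regulators FOXM1, MYBL2, E2F1, RBL1, RBL2, LIN54, CDKN1A and genes called at the limit of 1 were named (1 further regulator is not reported here), and from the other lists up to 3 called genes per comparison. Alternatives were edgeR 4.0.16 TMM factors, DESeq2 1.42.0 size factors, deposited TPM with 0.1 added, 5 reads added, minimums of 10 and 100 counts, transcript counts summed per gene, and an edgeR negative binomial exact test in which the coefficient of variation was set to 0.2. Python 3.11.15, scipy 1.17.1 and R 4.3.3 were used. KRT19, COL3A1, INS and PRSS1 were looked up as markers and were not among the 16834 genes.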

Additional observations from a re-analysis of the deposited data

Results flagged for a closer look

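Among the 39 genes 4 lay on opposite sides of 0, beyond counting error, when the same drug was added without and with the other drug. With trametinib, PLK1 had a log2 ratio of -0.07 without NBT and 0.16 with it (departure from additivity 0.23), CENPF had -0.10 and 0.10 (departure 0.19), and TPX2 had -0.06 and 0.06 (departure 0.12). With NBT, CCNB1 had 0.09 without trametinib and -0.06 with it (departure -0.14). The differences were not tested, since there is 1 library per condition, and all are under 0.5. The signs of these 4 genes were the same with TMM factors, with median-of-ratios factors, with TPM, with 5 reads added and with transcript counts summed, but the set of genes beyond counting error on both sides depended on the scaling. With TMM factors it held 3 genes, and with median-of-ratios factors and with TPM 4, among them TPX2 for NBT and, with TPM, also for trametinib. PLK1 and CENPF were in it under each of these settings, CCNB1 (-0.01 under TMM with trametinib present) was in it under none of these 3 scalings, and TOP2A entered it under all 3. These counts were added after the data had been seen.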

How the results depend on the processing

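No gene of the 39 passed the limit of 1 under any alternative, and under the other scalings the largest ratio was 0.74 to 0.77. Counts at the limit of 0.5 rest on ratios near it. Trametinib against control had 1 gene higher under TMM and under median-of-ratios scaling in place of 2, and the combination against control had 1 higher with deposited TPM in place of 2, while 4 genes in place of 3 were lower in it with TPM and with either other set of scaling factors, since MAD2L1 was then past the limit. With a negative binomial test at an assumed coefficient of variation of 0.2, the counts of 2 lower for NBT, 2 higher for trametinib, 3 lower and 2 higher for the combination against control, 1 lower for the combination against trametinib and 1 higher for it against NBT all became 0. The summed level over the control was 0.897, 1.073 and 0.999 for NBT, trametinib and the combination in TPM, and 0.939, 1.092 and 1.026 in FPKM. Of the counts over pairs that share no library, genes higher with NBT were 1 in place of 2 with deposited TPM, and genes lower with trametinib were 5 in place of 3 under TMM scaling; genes higher with trametinib were 13 in place of 17 under TMM and under median-of-ratios scaling. The median for trametinib against control was 0.08 under TMM scaling (all genes 0.00), in place of 0.16 (all genes 0.08). CHR letters stood in 52.3% of the windows when only the 250 bases before the start were searched. Of 195 single ratios, 175 moved by no more than 0.5 of the width of their counting interval under TMM scaling. The same held for 187 under median-of-ratios scaling and 183 with TPM, and the largest move was 0.08. No paired analysis was possible because each condition has 1 library, and no library could be left out for the same reason.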
